A study of Mus musculus with 16 samples.

Results

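The comparison described here set the prostates of mice homozygous mutant (-/-) for 1 gene against those of wild-type (+/+) mice, all given vehicle, the carrier without drug. Its members were the 3 mutant vehicle libraries, the 3 wild-type vehicle libraries, and every gene with a mean log2 value over all 16 libraries of at least about 3.3, or about 10 after taking it out of log2. That rule kept 16506 of the 29535 genes in the table. The mice were hybrids of the 129/SvImJ and C57Bl/6J strains, aged 12 months, and poly-A RNA of prostate was sequenced. The other 10 libraries, 5 of each genotype, came from mice given finasteride, a drug that inhibits 5-alpha-reductase. They give the same genotype difference under the drug. They also enter the gene filter and the estimate of spread behind each vehicle test. The labels give the tissue as prostate and name no lobe, and they do not tie libraries to animals, so the tests measure sample-to-sample spread, which may be technical.

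The prostate is a gland whose luminal cells make a secretion under the control of androgens. Its basal cells line the ducts below the luminal layer and are marked by the transcription factor p63. The mouse gland consists of several paired lobes that secrete different sets of proteins, and the seminal vesicles, sympathetic ganglia and pelvic muscle lie next to it.

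Values are the authors' normalized expression on a log2 scale, on which 1 unit is a doubling. They are not scaled to gene length, so levels are compared between libraries and not between genes. Read depth is unknown. Library totals of the values taken out of log2 lay between 24.31 and 24.49 as log2, and 10 genes made up 21.3% to 27.8% of each total. On the first principal component of the 6 libraries, with 73.24% of the variance, the genotypes stood apart, and on the second, with 16.15%, wild-type libraries 1 and 2 lay at opposite ends. Library 3 of each genotype lay close to a mixture of about equal parts of libraries 1 and 2 of its group, with a residual of 0.0941 log2 units in wild type and 0.0665 in the mutant. Each test was therefore repeated over the 11 libraries of the study without the 5 that resemble mixtures, which leaves 2 vehicle libraries per genotype.

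Differences are mutant minus wild type on the log2 scale with the moderated standard error of limma, and a gene passed the test where its p adjusted by Benjamini and Hochberg over all 16506 genes was under 0.05. The mutant differed from wild type in 5300 genes, 32.1% of those tested. Of these, 2408 (14.6%) were higher and 2892 (17.5%) lower in the mutant. Large differences lay on the lower side, since 428 genes fell and 109 rose by more than 2 log2 units, and 70 fell and 12 rose by more than 4. The median difference over all tested genes was 0.0024. With 11 libraries the count was 1530 (9.27%), of which 650 were higher and 880 lower, all with the direction they had with 16. Of the passing genes 45.4% were higher, against 56.1% when each library was centred on its own median, a step that moved the median difference by 0.078. The groups did not overlap in 9204 genes (55.8%), so a gap between the groups is common here and is reported below only as a description.

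**Figure D1:**
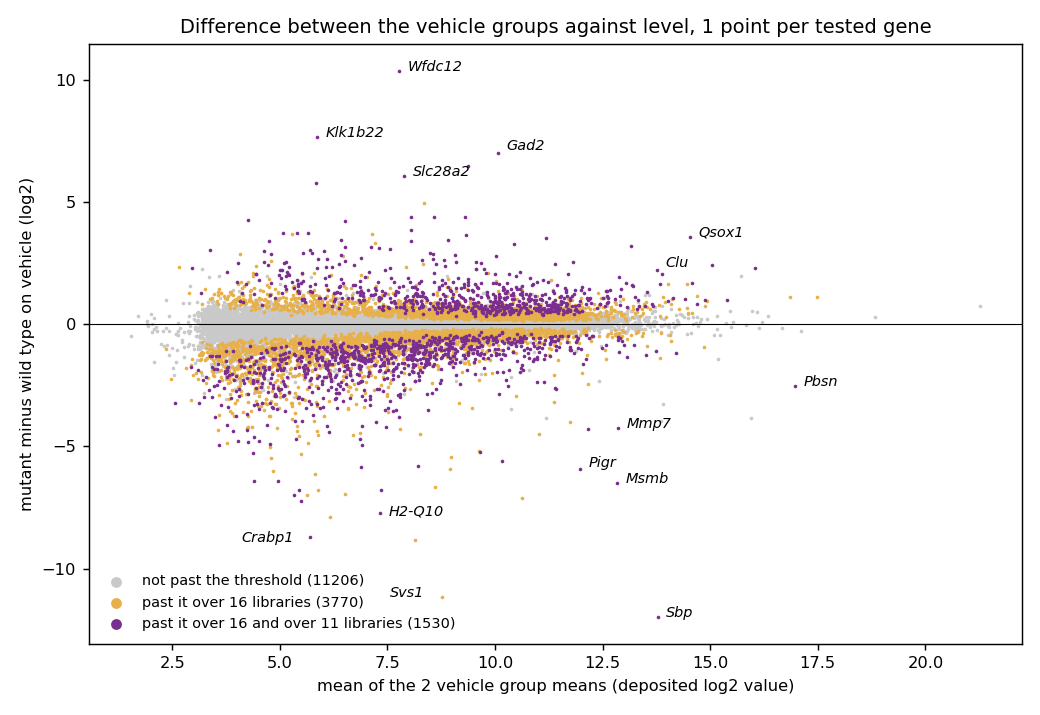
Difference between the mutant and wild-type vehicle groups (vertical axis, log2) against the mean of both groups (horizontal axis, log2), 1 point per tested gene. Purple points, 1530 genes, passed over 16 and over 11 libraries, ochre points over 16 libraries alone, and Sbp and Wfdc12 lie at the extremes.

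The largest fall was in a secretory protein. Sbp, spermine-binding protein, an androgen-dependent secretion known from the ventral prostate, stood at 19.85, 19.68 and 19.73 in wild-type libraries 1, 2 and 3 and at 8.98, 8.39 and 6.02 in mutant libraries 1, 2 and 3. The wild-type libraries lay close together, the mutant ones spread more widely, and no mutant library came near the wild-type range. Sbp fell by 11.96 ± 2.08 (limma adjusted p = 4.88e-04; 0.038 over 11 libraries). Its paralogue Sbpl fell by 4.85 ± 1.20 (adjusted p = 0.00633), a call not kept over 11 libraries (adjusted p = 0.0937). Where reads could be split between these copies their values are uncertain.

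Msmb, beta-microseminoprotein, read 15.73, 16.39 and 16.10 in wild type and 9.90, 9.29 and 9.58 in the mutant. It fell by 6.48 ± 0.75 (adjusted p = 1.50e-05). Pbsn, probasin, read 18.08, 18.31 and 18.30 in wild type and 15.66, 15.73 and 15.69 in the mutant, and fell by 2.54 ± 0.25, a smaller amount (adjusted p = 3.62e-06). Both genes separated the groups with little spread within either. Pigr, the receptor that carries polymeric antibodies across epithelium into secretions, went from 15.01, 14.89 and 14.91 in wild type to between 8.89 and 9.16 in the mutant, and fell by 5.92 ± 0.67 (adjusted p = 1.14e-05). Mmp7, matrilysin, a matrix metalloprotease secreted by glandular epithelium, went from 15.11, 14.88 and 14.99 to 11.01, 10.54 and 10.64, and fell by 4.26 ± 0.28 (adjusted p = 8.47e-08). For Mmp7 the error was small against the difference, and the call held over 11 libraries (adjusted p = 5.76e-04).

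The gel-forming mucin gene Muc19 read 8.79, 9.33 and 9.16 in wild type and 0.96, 2.67 and 1.99 in the mutant. Smgc, which is transcribed from the same locus, read 7.84, 8.34 and 8.32 and 2.36, 1.18 and 1.74, and their shared exons make the split between them uncertain. They fell by 7.22 ± 0.77 and by 6.41 ± 0.99 (adjusted p = 6.89e-06 and 1.85e-04). Ms4a5, of the membrane-spanning 4-domain family, read 13.13, 12.74 and 13.04 and 7.37, 7.39 and 7.31 and fell by 5.61 ± 0.82 (adjusted p = 1.12e-04). Further falls that passed over 16 and over 11 libraries were those of H2-Q10, a secreted class I histocompatibility protein (-7.74 ± 1.03), of the ADAM family membrane proteins Adam28 (-6.99 ± 0.98) and Adam7 (-6.76 ± 1.15), and of the serpin Serpina3n (-2.68 ± 0.30). Adam28 and Adam7 were also in a list of epididymis and vas deferens genes, of which 3 of 7 tested were lower. The summed level of that list was 12.43 to 13.59 in wild type and 11.58 to 12.51 in the mutant, as log2. These ranges overlapped, and the part of such tissue was not tested. Spink5, a protease inhibitor, fell by 7.11 ± 1.95 (adjusted p = 0.0116), and its adjusted p over 11 libraries was 0.144.

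In the list of prostatic secretory proteins, 22 members were tested, 7 were lower, 2 higher and 13 did not pass. The members that rose were Clu, clusterin, an extracellular chaperone known to increase in the prostate after castration, and the defensin Defb42. Clu read 12.60, 12.73 and 12.61 in wild type and 14.78, 14.99 and 14.87 in the mutant, a rise of 2.23 ± 0.18 (adjusted p = 5.69e-07), whereas Defb42 read 11.59, 8.98 and 10.65 and 11.60, 12.71 and 12.29 (adjusted p = 0.0238) and its call was lost over 11 libraries (adjusted p = 0.188) and without wild-type library 2, mutant library 2 or mutant library 3. Its difference without wild-type library 2 was 1.08. Over 11 libraries 4 were lower and 1 was higher. In whole tissue, fewer cells of a type and less RNA per cell cannot be told apart. The secretory list did not move as a block, and the wild-type libraries themselves disagreed on some members. Ren1 read 7.84, 16.58 and 15.65 in wild type and 14.50, 13.61 and 14.07 in the mutant, and Ceacam10 read 16.24, 7.36 and 15.04 and 12.81, 14.55 and 13.97. Neither passed (adjusted p = 0.783 and 0.686), with Ren1 low in wild-type library 1 and Ceacam10 low in wild-type library 2.

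The largest rise was in Wfdc12, which encodes a small secreted protein with a whey acidic protein domain, a fold found in many protease inhibitors. It read 2.19, 2.46 and 3.14 in wild type and 12.72, 13.16 and 12.95 in the mutant, and rose by 10.35 ± 0.55 (adjusted p = 1.67e-08; 9.40e-05 over 11 libraries). Wild-type values lay near the bottom of the scale, where fold changes may be understated. Wfdc8 went from 6.86, 5.59 and 6.56 to 9.69, 9.81 and 9.75, a rise of 3.41 ± 0.41, and Wfdc6b from 5.29, 3.62 and 4.26 to 8.56, 8.68 and 8.62, a rise of 4.23 ± 0.47. Eppin, an epididymal protease inhibitor, rose by 2.52 ± 0.41, Wfdc6a by 2.30 ± 0.27 and Spint2, an inhibitor of membrane serine proteases, by 1.67 ± 0.22. Slpi, secretory leukocyte protease inhibitor, went the other way, from 5.98, 8.65 and 7.86 to between 3.29 and 3.98, and fell by 3.97 ± 0.54 (adjusted p = 6.25e-05). Of the 15 tested members of this family 7 were higher and 2 lower, and 6 and 1 held over 11 libraries. The family's median difference was -0.12, opposite in sign to the balance of calls. Without wild-type library 1, wild-type library 2 or mutant library 1, or after quantile normalization, 1 member was lower.

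Most of these genes sit in 1 cluster on chromosome 2. In the order of a GRCm38.p6 RefSeq annotation, 32 protein-coding genes run from Wfdc5 to Wfdc3, and 20 of them were tested. In that stretch 8 genes were higher, 2 lower and 10 did not pass. The 2 lower genes were Slpi and Sdc4, a cell surface proteoglycan (-0.50 ± 0.10, adjusted p = 0.0792 over 11 libraries), and among the higher ones Pigt, a subunit of the enzyme that attaches lipid anchors to proteins, rose by 1.39 ± 0.15. Between Wfdc15b and Slpi lie the seminal vesicle secretory genes, of which Svs2 read 19.94, 8.01 and 18.60 in wild type and 11.31, 13.31 and 12.18 in the mutant. It did not pass (adjusted p = 0.37), and the wild-type libraries spanned the mutant ones. Wfdc15b, next to them, rose by 4.97 ± 1.52 (adjusted p = 0.0207) but not over 11 libraries (adjusted p = 0.151) or without wild-type library 2, mutant library 2 or mutant library 3.

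The 250 bases before the annotated start are shown for Pbsn and Pigr, which fell on vehicle, and Wfdc12 and Wfdc6b, which rose. Pbsn has a standard androgen-responsive promoter. On finasteride, described below, Pbsn was lower and Pigr higher in the mutant. All 4 were matched by symbol, and the sequences are RefSeq's, on GRCm38.p6, 5′ to 3′ on the gene's strand, at chrX:77853501-77853750 (minus strand) for Pbsn, chr1:130826434-130826683 (plus) for Pigr, chr2:164190559-164190808 (minus) for Wfdc12 and chr2:164613450-164613699 (plus) for Wfdc6b. Capitals mark AGAACA or its reverse complement TGTTCT, the half-site of hormone response elements, searched on both strands.
Pbsn: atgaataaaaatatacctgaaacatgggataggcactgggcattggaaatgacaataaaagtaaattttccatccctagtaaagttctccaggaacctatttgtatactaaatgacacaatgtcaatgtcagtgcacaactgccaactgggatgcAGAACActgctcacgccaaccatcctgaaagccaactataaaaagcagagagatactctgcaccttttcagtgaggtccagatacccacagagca
Pigr: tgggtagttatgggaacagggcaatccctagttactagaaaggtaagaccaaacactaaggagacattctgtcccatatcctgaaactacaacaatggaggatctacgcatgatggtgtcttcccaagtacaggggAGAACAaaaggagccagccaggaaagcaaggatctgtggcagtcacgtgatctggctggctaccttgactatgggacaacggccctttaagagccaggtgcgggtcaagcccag
Wfdc12: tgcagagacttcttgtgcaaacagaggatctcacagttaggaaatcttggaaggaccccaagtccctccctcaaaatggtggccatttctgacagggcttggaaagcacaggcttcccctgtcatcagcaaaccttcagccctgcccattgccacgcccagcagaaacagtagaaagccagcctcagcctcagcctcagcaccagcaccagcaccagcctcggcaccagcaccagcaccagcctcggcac
Wfdc6b: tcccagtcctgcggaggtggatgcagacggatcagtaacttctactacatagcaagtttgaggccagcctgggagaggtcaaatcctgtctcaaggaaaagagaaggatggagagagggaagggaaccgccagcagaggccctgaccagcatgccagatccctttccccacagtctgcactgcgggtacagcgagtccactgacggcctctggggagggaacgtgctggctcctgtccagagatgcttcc
The letters occur in 1 place in Pbsn and 1 in Pigr, and not in these windows of Wfdc12 and Wfdc6b. Of the 32851 promoters of this length in the table, 16.1% hold them, and a match is a description only. The 4 genes were chosen after their values were seen. The share was not counted among falling or rising genes, so nothing links the letters to direction.

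**Figure D2:**
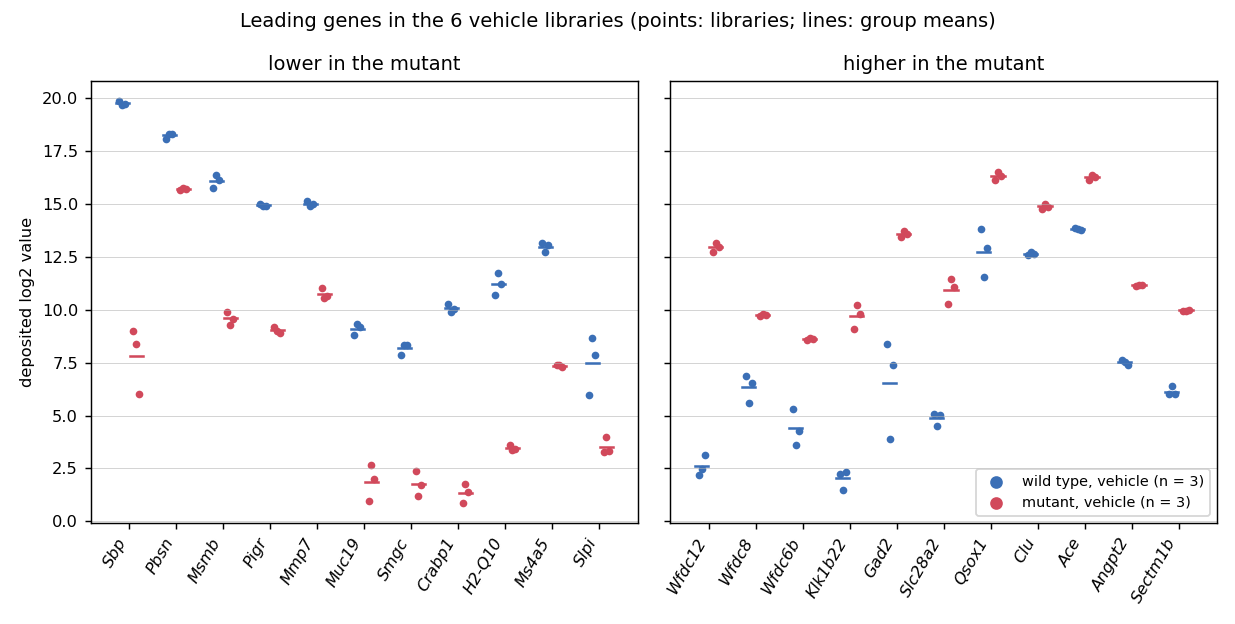
Deposited log2 values (vertical axis) of 11 genes lower and 11 higher in the mutant, with blue points for the 3 wild-type and red points for the 3 mutant vehicle libraries and lines for group means. The groups are apart in each gene shown, and the wild-type points spread most in Gad2, Slpi and Qsox1.

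Other large rises were in genes of enzymes and transporters. Gad2, glutamate decarboxylase, which makes the transmitter GABA, read 8.39, 3.87 and 7.39 in wild type and 13.43, 13.70 and 13.58 in the mutant, a rise of 7.02 ± 0.82 (adjusted p = 1.70e-05). Wild-type library 2 was far below the other wild-type libraries, and all 3 mutant libraries were above them. Slc28a2, a sodium-coupled nucleoside transporter, went from 5.06, 4.49 and 5.04 to 10.27, 11.44 and 11.05, and Klk1b22, a glandular kallikrein, from 2.25, 1.49 and 2.35 to 9.11, 10.20 and 9.80. They rose by 6.06 ± 0.47 and 7.67 ± 1.42 (adjusted p = 3.42e-07 and 8.16e-04), and reads of Klk1b22 may be shared with its many close copies. Qsox1, quiescin sulfhydryl oxidase, which forms disulphide bonds in secreted proteins, went from 13.81, 11.53 and 12.90 to 16.14, 16.50 and 16.32, a rise of 3.58 ± 0.48 (adjusted p = 4.99e-05). Ace, angiotensin-converting enzyme, went from 13.88, 13.81 and 13.78 to 16.12, 16.36 and 16.26, a rise of 2.42 ± 0.20 (adjusted p = 5.66e-07) with wild-type libraries close together.

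Angpt2, angiopoietin 2, a ligand of the endothelial receptor Tek, read 7.61, 7.54 and 7.37 in wild type and 11.13, 11.17 and 11.15 in the mutant, a rise of 3.64 ± 0.33 (adjusted p = 1.46e-06). Tek itself was lower (-0.77 ± 0.13, adjusted p = 4.11e-04). Sectm1b, a secreted and transmembrane protein, went from 6.00, 6.38 and 6.01 to 9.94, 9.94 and 10.01, a rise of 3.84 ± 0.16 and the smallest adjusted p of the named genes (7.88e-10). Among further genes that passed over 16 and over 11 libraries were the inward rectifier potassium channel gene Kcnj15 (4.38 ± 0.53), Khdc1a (5.78 ± 0.86), Srpx (4.40 ± 0.60), Nipal4 (4.37 ± 0.41) and M1ap (3.72 ± 0.31).

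Genes of the androgen axis were lower more often than higher, though not throughout. Of 32 genes known to be induced by androgen, 15 were lower (46.9%), 6 higher (18.75%) and 11 did not pass, with a median of -0.30. The shares over all tested genes were 17.5% lower and 14.6% higher, so the higher share lay near that of all genes. Over 11 libraries 7 of the 32 were lower and 5 higher. Lower members included the membrane-bound acyltransferase Mboat2 (-2.23 ± 0.39) and the protease Tmprss2 (-0.86 ± 0.09). Fkbp5, a co-chaperone of steroid receptors, fell by 1.26 ± 0.33 (adjusted p = 0.00921), with an adjusted p of 0.128 over 11 libraries.

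The higher members of the same list included the kinase Sgk1, at 13.17, 12.51 and 12.86 in wild type and 14.83, 14.96 and 14.92 in the mutant, and its substrate Nedd4l, a ubiquitin ligase, at 9.76, 9.28 and 9.51 and 11.41, 11.52 and 11.49. They rose by 2.06 ± 0.18 and 1.96 ± 0.11 (adjusted p = 1.34e-06 and 1.92e-08). Acsl3, which activates long-chain fatty acids, rose by 1.60 ± 0.27 (adjusted p = 3.31e-04), with wild-type library 1 below the others at 9.79, 11.24 and 10.89. Among steroid enzymes 21 were tested, 8 were lower (38.1%, against 17.5% of all tested genes) and 2 higher (9.5%, against 14.6%). With any vehicle library but wild-type library 2 left out 1 was higher, and over 11 libraries 4 were lower and 1 higher. Srd5a2, the main prostatic 5-alpha-reductase, went from 7.61, 7.33 and 7.73 to 6.53, 6.43 and 6.52 (-1.07 ± 0.22, adjusted p = 0.00209; 0.0914 over 11 libraries), and Srd5a1 did not pass (-0.22 ± 0.14). Hsd17b11, a 17-beta-hydroxysteroid dehydrogenase, rose by 1.38 ± 0.10, whereas Sult1e1, which sulphates oestrogens, fell by 2.31 ± 0.19 and Hsd11b1, which interconverts active and inactive glucocorticoids, fell by 1.42 ± 0.25. The oestrogen receptor gene Esr1 rose by 0.72 ± 0.14 (adjusted p = 9.53e-04).

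Most genes of cholesterol synthesis were lower, and polyamine and zinc genes moved in both directions. In cholesterol synthesis 17 of 26 tested genes were lower and 1 was higher. This count was sensitive to single libraries: 8 were lower without wild-type library 2 or without mutant library 1, 10 without mutant library 3, 11 without wild-type library 3, and 4 over 11 libraries. Of 16 genes of polyamine metabolism 4 were higher and 7 lower, with 2 higher without any 1 of wild-type libraries 1 and 3 and mutant libraries 1 and 3, and 2 and 3 over 11 libraries. The prostate secretes polyamines. Of the genes in this list, Odc1 (-0.96 ± 0.09), the first enzyme of the route, Sms, spermine synthase (-1.16 ± 0.14), and Arg1, arginase (-2.45 ± 0.36), fell. Azin1, the inhibitor of the antizyme that removes Odc1 protein, rose by 1.43 ± 0.17, and Smox, which oxidises spermine, by 1.16 ± 0.18. Of 35 citrate cycle and zinc handling genes 5 were higher (14.3%) and 8 lower (22.9%), against 14.6% and 17.5% over all genes. These were 7 and 5 after median centring and 3 and 8 after quantile normalization. With 1 vehicle library left out 2 to 4 were higher and 5 or 6 lower, and over 11 libraries 2 and 2. The zinc-binding metallothioneins Mt1 and Mt2 fell (-1.10 ± 0.16 and -1.34 ± 0.13), the zinc exporter gene Slc30a2 rose from 9.67, 11.25 and 10.73 to 13.14, 13.02 and 13.08 (2.53 ± 0.31), and Slc30a4 fell by 1.60 ± 0.32 (adjusted p = 0.0675 over 11 libraries).

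Detoxifying and antioxidant genes were mostly lower where they passed. Of 22 glutathione transferases, enzymes that conjugate reactive compounds to glutathione, 11 were lower and 1 was higher, and 8 stayed lower over 11 libraries. Gstm6 went from 6.87, 6.42 and 6.36 to 3.69, 3.71 and 3.53 (-2.91 ± 0.41, adjusted p = 9.00e-05), Gsta2 from 6.68, 5.47 and 6.11 to 3.94, 2.97 and 3.90 (-2.48 ± 0.38, adjusted p = 1.73e-04) and Gstm7 differed by -1.68 ± 0.24. Gsto1 was the higher member (0.56 ± 0.15), and it did not pass without wild-type library 1 or over 11 libraries (adjusted p = 0.143). Reads of the close Gstm and Gsta copies may be split between them. Of 33 antioxidant genes 9 were lower (27.3%, against 17.5% of all tested genes) and 3 higher (9.1%, against 14.6%). The other 21 did not pass, and the median was -0.01. Without mutant library 1, and also over 11 libraries, 5 were lower and 3 higher.

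Sod3, extracellular superoxide dismutase, read 8.16, 8.03 and 8.01 in wild type and 6.02, 6.07 and 6.18 in the mutant, and fell by 1.98 ± 0.29 (adjusted p = 1.26e-04). Slc7a11, the cystine importer (-1.84 ± 0.34), Hmox1, haem oxygenase 1 (-1.30 ± 0.21), and Txnrd1, thioredoxin reductase (-0.74 ± 0.07), also fell. Gpx2, an epithelial glutathione peroxidase, fell by 0.78 ± 0.25 (adjusted p = 0.0252), a call lost with quantile normalization and without wild-type library 1, wild-type library 2, mutant library 1 or mutant library 3. The higher members were Qsox1, described above, Ggt1, which breaks down glutathione at the cell surface (1.52 ± 0.20), and the mitochondrial dismutase gene Sod2 (0.52 ± 0.10).

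Retinoid and calcium genes that passed were nearly all lower. In retinoid handling 14 of 25 tested genes were lower and none was higher, with a median of -0.48, and 6 were lower over 11 libraries. Without wild-type library 2, 1 member was higher, and after median centring 2 were. Crabp1, which binds retinoic acid in the cytoplasm, read 10.25, 9.90 and 10.03 in wild type and 0.87, 1.76 and 1.38 in the mutant, and fell by 8.72 ± 1.62 (adjusted p = 8.10e-04). Aldh1a2, an enzyme that makes retinoic acid, went from 8.99, 8.04 and 8.54 to 5.60, 5.41 and 5.29 (-3.09 ± 0.49), and its relative Aldh1a3 (-1.27 ± 0.19), the retinal reductase Dhrs3 (-1.04 ± 0.18) and the retinoid-responsive Rarres2 (-1.43 ± 0.22) fell too. Among calcium pumps, channels and binding proteins 14 of 30 were lower and 1 was higher, the latter 3 after median centring, and 9 were lower over 11 libraries. Atp2c2, a Golgi calcium and manganese pump, went from 10.94, 10.63 and 10.68 to 4.14, 4.17 and 3.61 (-6.78 ± 1.26, adjusted p = 8.27e-04; 0.0476 over 11 libraries), and Stim1, the calcium sensor of the endoplasmic reticulum, rose by 0.75 ± 0.09. The epithelial calcium channel gene Trpv6 fell by 5.92 ± 1.27, with an adjusted p of 0.0684 over 11 libraries. Of 11 annexins, calcium-dependent membrane binding proteins, 7 were lower and none was higher, led by Anxa1 at 11.75, 11.29 and 11.51 in wild type and 9.71, 9.74 and 9.67 in the mutant (-1.81 ± 0.25), and 6 held over 11 libraries.

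Igf1 and the gene of its receptor moved in opposite directions. The ligand gene Igf1 read 10.28, 9.47 and 9.94 in wild type and 8.16, 8.31 and 7.96 in the mutant, and fell by 1.75 ± 0.21 (adjusted p = 1.84e-05). Its receptor gene Igf1r went from 10.11, 9.24 and 9.65 to 10.63, 10.89 and 10.75, a rise of 1.09 ± 0.17 (adjusted p = 1.92e-04). Among binding proteins Igfbp3 rose by 1.50 ± 0.20 and Igfbp2 fell by 1.52 ± 0.18, and the protease Pappa2, which releases the ligand from binding proteins, fell by 2.87 ± 0.47. In this axis 10 of 19 genes were lower and 3 higher, with 6 lower over 11 libraries. Cish, an inhibitor of cytokine signalling induced by STAT5, rose from 8.60, 7.96 and 8.03 to 10.19, 9.92 and 10.10 (1.88 ± 0.26, adjusted p = 7.46e-05), while Ghr, the growth hormone receptor gene, fell by 1.54 ± 0.22.

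In the Wnt axis 12 of 46 genes were higher and 16 lower, and the balance depended on scaling, with 13 and 12 after quantile normalization, 16 and 16 after median centring, and 5 and 9 over 11 libraries. Feedback inhibitors that remove the receptors from the membrane were higher: Rnf43 went from 9.71, 9.78 and 9.70 to 11.34, 11.21 and 11.24 (1.53 ± 0.09, adjusted p = 1.92e-08) and Znrf3 differed by 0.88 ± 0.12. Axin2, a common target of the pathway, rose by 1.22 ± 0.24, and the ligands Wnt2 and Wnt10a by 2.12 ± 0.36 and 1.90 ± 0.30, with wild-type library 1 lowest of the wild-type libraries in all 3. Lower members were the secreted agonist Rspo1 (-2.61 ± 0.33), its receptor Lgr5 (-1.57 ± 0.19) and the secreted inhibitors Wif1 (-1.94 ± 0.15) and Sfrp1 (-1.16 ± 0.15).

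Among genes of the TGF-beta and BMP axis 8 of 47 were higher (17.0%) and 12 lower (25.5%), against 14.6% and 17.5% of all tested genes, and 4 and 5 over 11 libraries. Id1 and Smad6, both induced by BMP signals, rose, Id1 from 8.92, 9.03 and 8.97 to 10.93, 11.14 and 11.07 (2.07 ± 0.24, adjusted p = 1.66e-05) and Smad6 by 1.46 ± 0.24. The receptor gene Bmpr1b went from 12.76, 12.57 and 12.76 to 9.97, 10.23 and 10.10, and fell by 2.59 ± 0.29 (adjusted p = 9.37e-06), and Fst, follistatin, which binds activin, fell by 1.32 ± 0.13. In the Notch axis 7 of 22 genes were higher and 1 was lower, although the median was -0.10, and 3 stayed higher over 11 libraries. None was lower without mutant library 1, 2 or 3, and 2 were without wild-type library 2. The ligands Jag1 and Jag2 rose by 0.73 ± 0.11 and 0.90 ± 0.13.

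**Figure D3:**
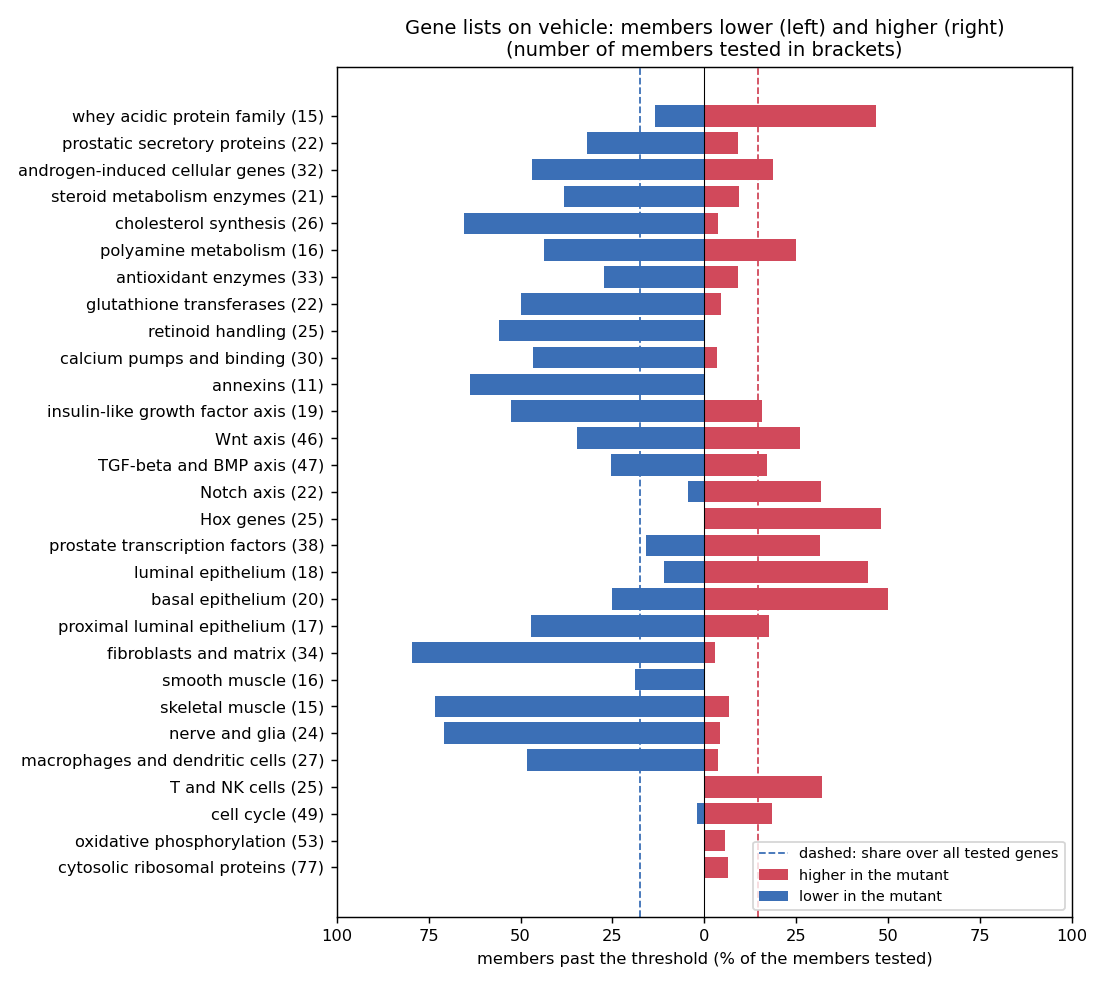
Share of the tested members of each gene list that were lower (blue, left) or higher (red, right) in the mutant, in percent, with the number tested in brackets. Dashed lines give the shares over all tested genes, 17.5% lower and 14.6% higher.

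Epithelial identity genes changed in part. The luminal keratin genes Krt8 and Krt18 did not pass (-0.16 ± 0.14 and -0.06 ± 0.11). Of 18 luminal markers 8 were higher (44.4%, against 14.6% of all tested genes) and 2 lower (11.1%, against 17.5%), with 3 and 0 over 11 libraries. Their summed level, as log2, was 16.98 to 17.10 in wild type and 17.28 to 17.46 in the mutant. That of the basal list was 14.19 to 14.26 and 14.38 to 14.40, and the part of cell number was not tested. Of 20 basal markers 10 were higher and 5 lower, 3 were lower without wild-type library 3, mutant library 2 or mutant library 3, and 5 were higher and 3 lower over 11 libraries. Trp63, the gene of p63, went from 9.18, 8.86 and 8.92 to 10.09, 9.91 and 10.03 (1.02 ± 0.12, adjusted p = 1.48e-05). The hemidesmosome genes Lama3 and Col17a1 rose by 1.70 ± 0.20 and 1.15 ± 0.16, while Krt5, a basal keratin, did not pass (0.33 ± 0.15) and the epidermal growth factor family ligand Nrg1 fell by 1.56 ± 0.25. Of 17 genes known from luminal cells near the urethra, 8 were lower and 3 higher (3 and 1 over 11 libraries), a share of 17.6% higher against 14.6% of all tested genes. Krt7 fell by 2.33 ± 0.27 and Cd44 went from 9.89, 9.38 and 9.74 to 7.69, 8.03 and 7.77 (-1.84 ± 0.27), while members that rose included Clu, described above, and Ly6e (0.67 ± 0.18). Ly6e had an adjusted p of 0.16 over 11 libraries and did not pass after quantile normalization or without wild-type library 1 or mutant library 1. The summed level of this list was higher in every mutant library, at 16.37 to 16.39 against 15.85 to 16.03 in wild type, as log2. A sum gives most weight to abundant members. Ly6e, the most abundant over all 16 libraries, and Clu rose, whereas the list's median difference was -0.34, so the sum does not describe most members. Of 6 tested genes of bladder lining 3 were higher and 1 was lower, with the same counts over 11 libraries. The 3 higher ones were Upk2, Upk1b and Gata3, the last of which is also a luminal regulator and is given below. The defining marker Upk3a was too low to be tested, at 3.03, 2.83 and 2.17 in wild type and 3.38, 3.22 and 3.49 in the mutant. Upk2 rose from 5.24, 4.38 and 5.20 to 8.31, 7.92 and 8.09 (3.17 ± 0.31). Upk1b read 11.79, 11.97 and 11.94 in wild type and 13.29, 14.33 and 13.9 in the mutant. The lower member, Upk3b, fell by 4.41 ± 0.86. The summed level of 12 bladder lining genes, Gata3 among them, was 13.59 to 13.85 in wild type and 14.53 to 15.14 in the mutant, as log2. The part of bladder tissue was not tested.

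More developmental regulators rose than fell. Of 25 tested Hox genes, which pattern the body axis, 12 were higher and none was lower, although 1 was lower after quantile normalization and 5 in a fit of the 6 vehicle libraries alone, and 3 held over 11 libraries. Hoxa13, needed for urogenital development, went from 8.49, 8.34 and 8.41 to 9.39, 9.12 and 9.28 (0.85 ± 0.11, adjusted p = 4.45e-05). Hoxd13, its partner in the prostate, was higher by 1.19 ± 0.25 (adjusted p = 0.0728 over 11 libraries). Of 38 transcription factors of prostate development and differentiation 12 were higher and 6 lower (15.8%, against 17.5% of all tested genes), with a median of -0.03, and 3 were lower without wild-type library 3. Over 11 libraries 7 were higher and 1 was lower. Gata3, a luminal regulator, went from 11.64, 12.11 and 12.00 to 13.13, 13.41 and 13.26 (1.35 ± 0.14), and Sox2, a progenitor regulator, from 6.16, 6.39 and 6.33 to 7.83, 7.38 and 7.46 (1.27 ± 0.18). Tfap2c also rose (1.15 ± 0.15), and Six2 fell by 2.99 ± 0.64.

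Most connective tissue genes fell. Of 34 fibroblast and matrix genes 27 were lower and 1 higher, with a median of -0.81, and 16 were lower over 11 libraries. Col6a3, a collagen VI chain, went from 12.92, 12.63 and 12.67 to 10.06, 10.15 and 10.02 (-2.66 ± 0.28), and Dcn, decorin, from 13.51, 13.32 and 13.48 to 12.39, 12.23 and 12.28 (-1.14 ± 0.18). The summed level of the list, as log2, was 16.25 to 16.46 in wild type and 15.49 to 15.53 in the mutant.

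Other tissues showed in the wild-type libraries unequally. The summed level of 12 seminal vesicle genes was 21.88, 17.73 and 20.69 in wild-type libraries 1, 2 and 3 and 16.85 to 18.07 in the mutant. Svs1 read 18.70, 6.95 and 17.36 in wild type and 6.06, 1.18 and 2.32 in the mutant and was called lower (-11.15 ± 2.10, adjusted p = 8.96e-04; 0.0747 over 11 libraries), while without wild-type library 2 the number of list members called lower was 8 of 11, against 2 with all libraries, 1 without any other vehicle library but mutant library 2, and none over 11 libraries. The summed level of 24 nerve and glia genes was 12.46, 13.92 and 13.43 in wild type and 12.52 to 12.64 in the mutant. Snap25, which fuses synaptic vesicles, read 5.21, 9.48 and 8.99 in wild type and 5.29, 2.40 and 4.78 in the mutant, with wild-type library 1 far below the others, and did not pass without wild-type library 2, wild-type library 3 or mutant library 2 (adjusted p = 0.206 over 11 libraries). Of these 24 genes 17 were called lower, 6 without wild-type library 2, wild-type library 3 or mutant library 2, and none over 11 libraries. The defining glial marker Sox10 was detected in all 6 libraries, as were the defining seminal vesicle markers. The part of these tissues in the other differences was not tested.

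Of 15 skeletal muscle genes 11 were lower, 7 without wild-type library 1 and 4 over 11 libraries, and Myh1, a fast myosin, went from 7.70, 6.70 and 7.29 to 2.61, 1.75 and 2.65 (-4.90 ± 0.62). The actin gene Acta1 was higher (0.65 ± 0.22), although the call was lost without any 1 vehicle library, and the summed level of the list, 11.61 to 12.01 in wild type and 11.94 to 12.15 in the mutant, overlapped.

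Immune genes did not change in 1 direction. Of 27 macrophage and dendritic cell genes 13 were lower (48.15%, against 17.5% of all tested genes) and 1 was higher. Over 11 libraries 1 was lower. The summed level of that list was 12.78 to 12.88 in wild type and 12.35 to 12.46 in the mutant, as log2. The part of macrophage number was not tested. Of 25 genes marking T and NK cells 8 passed as higher, 5 without mutant library 2 or mutant library 3 and none over 11 libraries, among them Cd3e (0.70 ± 0.26, adjusted p = 0.0481), whose call was lost without any vehicle library but wild-type library 2 and mutant library 1. Their summed level was 9.38 to 9.44 in wild type and 9.88 to 10.05 in the mutant, as log2, and the part of T cell number was not tested. Of 15 B and plasma cell genes 5 were lower, 2 higher and 8 did not pass, with a median of -0.04, and 3 were lower without mutant library 3, after quantile normalization or over 11 libraries. Among the lower ones Ms4a1, a B cell surface protein, went from 5.80, 5.48 and 5.60 to 2.91, 3.27 and 3.70 (-2.34 ± 0.22) and the antibody joining chain Igj from 7.02, 7.17 and 7.23 to 5.13, 5.25 and 4.59 (-2.15 ± 0.30), both passing over 11 libraries, whereas Cd79a, a defining B cell marker, read 3.54, 3.31 and 3.56 and 3.27, 3.25 and 4.03 and did not pass (adjusted p = 0.918). The higher members were the plasma cell regulator Prdm1 (1.30 ± 0.22) and Sdc1, a proteoglycan of plasma cells and epithelium (0.62 ± 0.14, adjusted p = 0.104 over 11 libraries). The summed level of the list, as log2, was 15.21 to 15.33 in wild type and 13.05 to 13.06 in the mutant, but without Pigr, which epithelium expresses, it was 12.89 to 13.02 and 12.96 to 12.98, a sum added after the data were seen, and the groups overlapped. The chemokine genes Cxcl17 and Ccl11 fell by 3.55 ± 0.53 and 3.02 ± 0.24. B2m, the light chain of class I histocompatibility molecules, was higher by 1.12 ± 0.23 (adjusted p = 0.0813 over 11 libraries). Of 49 cell cycle genes 9 were higher (18.4%, against 14.6% of all tested genes), 1 was lower and 39 did not pass. The higher count was 24 after quantile normalization, 14 after median centring and 2 over 11 libraries, and the replication genes Mcm5 (0.98 ± 0.17) and Uhrf1 (1.20 ± 0.21) passed over 11 libraries.

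**Figure D4:**
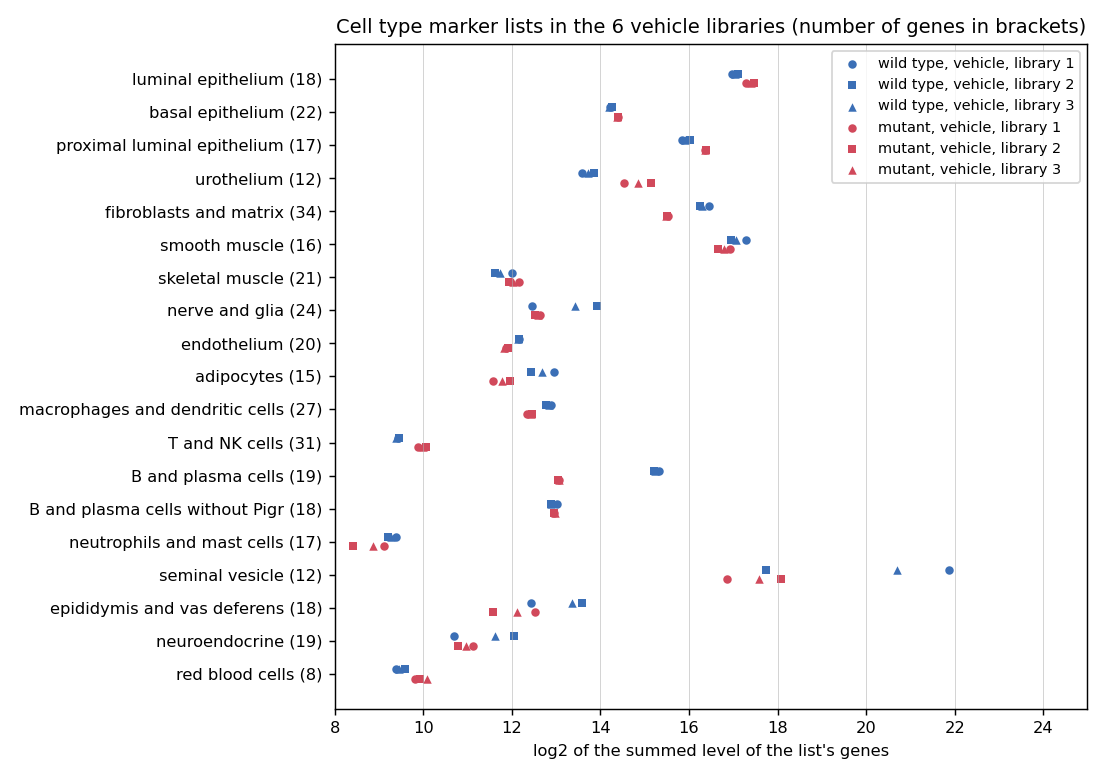
Log2 of the summed level of cell type marker lists (horizontal axis) in the 6 vehicle libraries, blue for wild type and red for mutant, with 1 symbol per library number. Wild-type libraries 1 and 3 stand high in seminal vesicle genes, wild-type libraries 2 and 3 in nerve genes, and fibroblast genes are lower in all mutant libraries.

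The finasteride libraries, whose means do not enter the vehicle difference, gave the genotype difference under a 5-alpha-reductase inhibitor. There 10499 genes passed (63.6%), 33.2% of those tested higher and 30.4% lower in the mutant. Of the 2408 genes higher on vehicle 847 were higher on finasteride, 826 lower and 735 passed in neither direction, so that 35.2% kept their direction. Of the 2892 lower on vehicle 640 were lower, 1486 higher and 766 neither, so that 22.1% kept it. The difference between the treatments was itself tested as an interaction, which passed in 9339 genes (56.6%).

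Wfdc12 was high in the mutant under both treatments, with a lowest, median and highest value of 2.35, 2.85 and 4.67 in wild type and 10.14, 11.80 and 12.17 in the mutant on finasteride (8.36 ± 0.43, adjusted p = 4.96e-10). M1ap (3.72 ± 0.24) and Nedd4l (2.25 ± 0.09) were higher, and Ms4a5 (-6.10 ± 0.63) lower, by amounts whose interaction did not pass (adjusted p = 0.994, 0.0869 and 0.705). Pbsn fell further, from 17.50, 18.12 and 18.32 to 10.35, 11.13 and 11.46 (-6.92 ± 0.19), and Clu rose further, from 10.50, 11.20 and 11.46 to 16.20, 16.37 and 16.48 (5.26 ± 0.14), and the interaction passed for both (adjusted p = 8.78e-08 and 1.23e-07).

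Several of the largest falls on vehicle did not recur on finasteride. Sbp had a lowest, median and highest value of 9.95, 18.34 and 19.36 in wild type and 15.91, 16.36 and 16.61 in the mutant on finasteride (0.87 ± 1.61, adjusted p = 0.651), with all 5 mutant libraries inside the wide wild-type range, and the interaction passed (adjusted p = 7.92e-04). Msmb was higher in the mutant on finasteride (2.04 ± 0.58), as were Pigr (2.40 ± 0.52) and Adam7 (4.03 ± 0.89), and their interactions passed (adjusted p = 4.25e-06, 1.81e-06 and 2.46e-05). In the other direction Mrgpra9, an orphan receptor of the Mas-related family, was higher on vehicle (3.73 ± 0.40) and lower on finasteride (-1.43 ± 0.31), and Lama3 was higher on vehicle and lower on finasteride (-1.41 ± 0.15), with adjusted p = 1.36e-06 and 2.07e-07 for the interaction. Wild-type finasteride libraries varied widely in several of these genes, for example from 9.95 to 19.36 in Sbp, and the part of that spread was not tested.

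**Figure D5:**
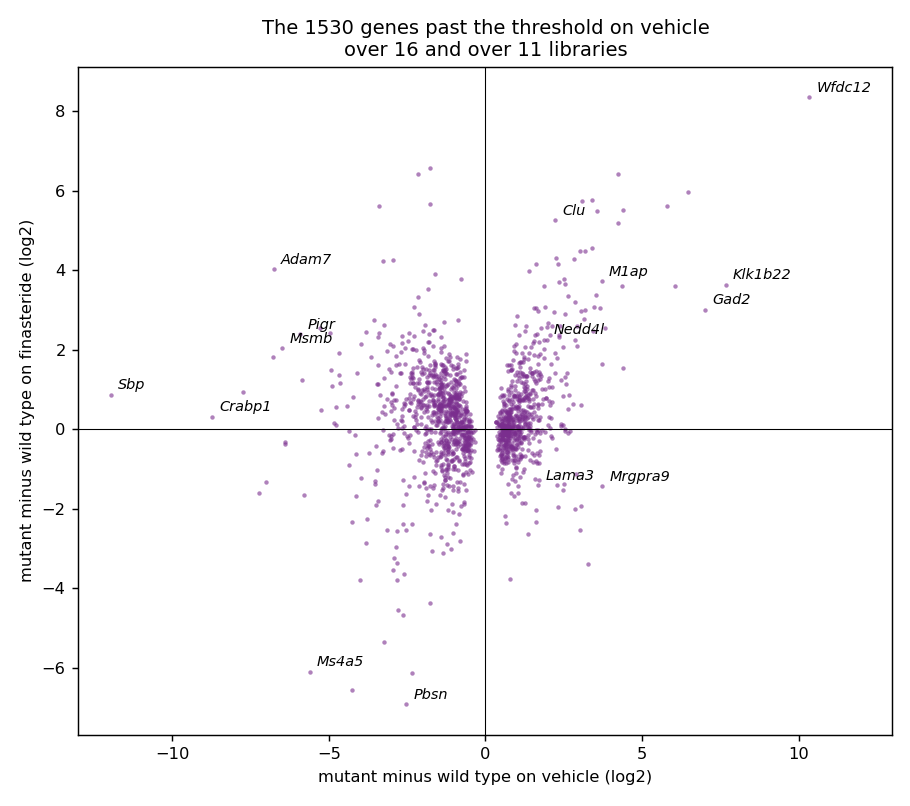
Genotype difference on finasteride (vertical axis, log2) against that on vehicle (horizontal axis, log2) for the 1530 genes that passed on vehicle over 16 and over 11 libraries, 1 point per gene. Wfdc12, M1ap and Nedd4l lie in the upper right, Pbsn and Ms4a5 in the lower left, and Msmb, Pigr and Adam7 in the upper left.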

How the data were processed

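The deposited table holds normalized log2 expression of 29535 genes in 16 libraries, made by the authors from poly-A RNA. Per the submitters' processing notes, CASAVA 1.8.2, TopHat, Cufflinks, DESeq and DESeq2 were used with build mm9, and which tool made the table is not given in the sources used here. The base of 2 was inferred from library totals. Low values look shrunken, which would understate fold changes. Groups came from the labels, and replicate numbers only name libraries. The mutated gene is not reported here.

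All 16 libraries entered 1 limma fit (limma 3.58.1, R 4.3.3) with a mean for each of 4 groups. Tests were two-sided, and variances were moderated with a trend on mean expression. The error of the vehicle difference thus uses the spread of all 4 groups. Mixture-like libraries were those that a weighted sum of 2 others of their group matched with a residual SD under 0.1 log2 units and weights that each exceeded 0.2, over genes with values of at least 8. The vehicle contrast was also run on simulated data with the 16506 tested genes. It found 70.2% of the genes given a difference of 1 log2 unit and 93.2% at 2 log2 units. The mean number of unchanged genes called was 9.6. The simulation drew independent noise with the same spread in all 4 groups, and changed far fewer genes than passed here. It held no mixture-like libraries, so these figures do not give the error rate in the real data.

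Members and gene lists were chosen with earlier results of these data known. The rule named the 15 highest and 15 lowest differences that passed over 16 and 11 libraries with a linear mean of at least 50, no overlap and a characterised symbol, the 10 largest rises and falls in level, and the 4 members of each list with the lowest p with its most abundant one, besides a few genes set by name, among them Pbsn, Msmb, Fkbp5, Srd5a1 and Srd5a2. It gave more names than the text could hold, so the text names a subset chosen after values were seen. Of the 141 genes given with vehicle values, 38 (such as Slpi, Ren1, Ceacam10, Gpx2, Gsto1, Igf1r, Axin2, Hoxd13, Sox2, Pigt and Sbpl) lie outside the rule and were also chosen after their values were seen. Alternatives were quantile normalization, median centring, 1 or 10 added before log2, no filter, a mean of at least 50 and no variance trend. Further ones were the 6 vehicle libraries alone, 11 libraries, and each library of the compared groups left out in turn.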

Additional observations from a re-analysis of the deposited data

Results flagged for a closer look

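For the genes whose finasteride values are given beside those on vehicle, chosen after the values were seen, the genotype effect differed between the treatments by the interaction test in 9 cases. It did not for M1ap, Nedd4l and Ms4a5. The interaction passed in 56.6% of all tested genes, so a passing interaction is common here. The effect on finasteride minus that on vehicle, in log2 units, was 12.82 for Sbp, 8.53 for Msmb, 8.32 for Pigr and 10.79 for Adam7, all of which fell on vehicle. It was -4.39 for Pbsn, which fell on vehicle and further on finasteride. Among genes that rose on vehicle it was 3.03 for Clu, -1.98 for Wfdc12, -5.16 for Mrgpra9 and -3.11 for Lama3. In the 5 mutant finasteride libraries 1 value of Adam7 stood apart, with a gap to the nearest library of 0.74 of the group's range. Chance flags about 1 in 20 such groups.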

How the results depend on the processing

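Without the mixture-like libraries 1530 genes passed on vehicle, 650 higher and 880 lower, 6775 on finasteride and 4843 for the interaction. That fit has 2 vehicle libraries per genotype. Other settings kept these counts within 1.5 times. With 1 library left out, the range was 3922 to 4492 genes on vehicle, 1740 to 2090 higher and 2171 to 2440 lower, 9768 to 11054 on finasteride and 8344 to 10116 for the interaction. A fit of the 6 vehicle libraries alone gave 3556 higher and 3750 lower genes. Quantile normalization put 54.0% of calls on the higher side. No paired analysis was possible because the replicate numbers follow accession order and pair no samples. Of the 133 named genes that passed, 114 kept their call under every alternative run. With each vehicle library left out in turn 125 kept it, and over 11 libraries 18 lost it. None of the 133 changed direction. Of the named genes that did not pass, Srd5a1 was 0.0679 after quantile normalization and Krt18 0.0205 after median centring, and over 11 libraries Cd79a was -0.163. With 1 vehicle library left out, Cd79a ranged from -0.21 to 0.18, Ren1 from -2.06 to 2.31 and Ceacam10 from -1.86 to 2.58. The low values limit precision, since read depth is unknown.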
